A study of Homo sapiens with 6 samples.

Results

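The 51 genes described here are the MYC network (MYC, MYCN, MYCL, their partner MAX and the repressors that share MAX) and genes that make ribosomes or polyamines, growth programmes that MYC is known to drive. They were taken from a fixed list of symbols, and their probes were found through the RefSeq accession that the array files give for each probe. All 51 had a probe among the 19740 genes named on the array, and 50 passed the detection filter and were tested among 14739 genes. The only probe of MYCN was not well above background on any of the 6 arrays.

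SU-DHL-2 is an established human B-cell line derived from a large cell lymphoma and used as a model of diffuse large B-cell lymphoma (DLBCL). Cells were kept for 72 h with IL-17A, a cytokine of Th17 cells, at 200 pg/ml (3 arrays), or without it as controls (3 arrays), in the same medium with fetal bovine serum. Total RNA of each sample was labelled with Cy3 and measured on its own 1-colour whole-genome oligonucleotide array. The comparison asks which transcripts differed after IL-17A, in 1 cell line, at 1 dose and 1 time, and the labels do not say whether the 3 samples of a group were started from separate cultures, so p-values describe the spread between these samples, which may be technical.

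On each array 23564 to 24076 of 34127 probes were detected, no spot was saturated, and the arrays correlated at 0.993 to 0.997 across probes. IL-17A replicate 1 was scanned with the 3 controls, whereas IL-17A replicates 2 and 3 were scanned together at another time. All 12 B-cell markers were detected on all 6 arrays and none was called; their summed signal was 86126 to 88522 with IL-17A and 81248 to 84641 in controls. Of 9 T and NK cell markers, 7 were also detected on all arrays, and CD5 and KLRD1 on none. The summed signals of this list were 256 to 269 with IL-17A and 261 to 278 in controls. Of the 7 tested, 4 were above 0 and 3 below. CD3E was called lower (log2 fold change -0.46), at a dim log2 signal of 2.71 to 3.32. CD2, also dim, gave 0.51 without overlap and was not called (adjusted p = 0.0539 by limma). The endothelial list, with 5 of 7 genes detected on all arrays, summed to 288 to 307 with IL-17A and to 319 to 366 in controls, and the monocyte and mesenchymal lists each had 1 gene detected on all arrays. Whether these shifts had a part in the results was not tested.

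MYC and MAX form a pair of basic helix-loop-helix leucine zipper proteins that binds the E-box CACGTG and activates genes of growth, while MXD proteins, MXI1 and MNT compete for MAX and repress the same sites. Ribosome production starts in the nucleolus, where RNA polymerase I transcribes the ribosomal RNA (rRNA) precursor, small nucleolar particles modify it, and separate sets of factors cut and fold it into the small and the large subunit. In B-cell lymphoma MYC is a frequent driver, and nucleolar genes are among its best known targets.

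The E-box is the sequence that links both groups, so it was searched for in the promoters of the genes. The RefSeq promoter table (GRCh38.p14) gives 300 bases for each gene start, 250 before it and 50 after it, and had an entry for 43 of the 50 tested genes; MYC, BOP1, RRP12, RRP1B, NOP58, NOLC1 and POLR1E had none. CACGTG reads the same on both strands and was the only motif searched. It stood in at least 1 listed promoter of 20 of the 43 genes (46.5%), against 1398 of 11643 tested genes with an entry (12%) and 7.26% of all 35116 entries. The genes were listed for their known link to MYC, so these shares describe the list and are no test of it. A gene with several listed starts was counted where any of them held the motif, which applied to 12 of the 43.

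The 6 genes that were called lower after IL-17A and had an entry (see the values further on) all held CACGTG, as did 46.5% of the 43 genes. These 6 were picked by the calls in these same data, and a link of calls to the motif was not tested. RRP12, also called lower, had no entry. The windows of the 6 genes, of 30 bases each, are shown 5′ to 3′ on the strand of the gene, with the E-box in capitals. The windows lay at chr12:6568242-6568271 for NOP2, chr3:51941892-51941921 for RRP9, chr12:101280083-101280112 for UTP20, chr10:68956604-68956633 for DDX21, chr1:43172790-43172819 for EBNA1BP2 and chr1:11060200-11060229 for SRM, with UTP20 and DDX21 on the plus strand and the other 4 on the minus strand.
NOP2: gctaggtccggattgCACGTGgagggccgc
RRP9: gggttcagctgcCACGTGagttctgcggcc
UTP20: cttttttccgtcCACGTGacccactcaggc
DDX21: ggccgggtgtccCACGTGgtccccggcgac
EBNA1BP2: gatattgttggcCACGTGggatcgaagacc
SRM: ccggccgggcccCACGTGgcccctggagcg
Counted from the start site, with negative positions before it, the E-box began at position 36 in NOP2, -5 in RRP9, -10 in UTP20, -31 in DDX21, -237 in EBNA1BP2 and -199 in SRM.

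The same letters also stood in genes whose signal barely differed between the groups, and 3 such windows are shown for contrast, FBL at chr19:39846356-39846385 and PES1 at chr22:30591880-30591909 on the minus strand, and GNL3 at chr3:52686026-52686055 on the plus strand.
FBL: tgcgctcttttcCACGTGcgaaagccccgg
PES1: tccttggcagggCACGTGcgggaggaagtg
GNL3: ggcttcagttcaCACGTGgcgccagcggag
In all 3 the E-box began just after the start, at position 7 in FBL and GNL3 and at position 14 in PES1. ODC1, a classical MYC target, was the only one of the 43 genes with 2 matches.

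The promoter of SRM is shown in full for the 250 bases before its start, since SRM had the lowest log2 fold change of the called genes, on the minus strand at chr1:11060019-11060268.
SRM promoter: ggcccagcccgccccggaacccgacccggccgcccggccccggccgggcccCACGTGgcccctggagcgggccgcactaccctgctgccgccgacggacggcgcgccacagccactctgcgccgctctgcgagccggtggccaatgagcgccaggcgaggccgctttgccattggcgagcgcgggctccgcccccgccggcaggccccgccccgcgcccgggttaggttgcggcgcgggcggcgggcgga
The single E-box lies in its far end, and the rest of the window is rich in G and C.

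With each gene taken by its brightest tested probe, 35 of the 50 tested genes had a log2 fold change below 0 and 15 above it, with a median of -0.09 against 0.00 over all tested genes. With limma and Benjamini-Hochberg adjustment over all tested probes, 7 genes (14% of the 50) were called lower at an adjusted p under 0.05, against 3.49% of all genes, and 0 were called higher, against 4.38%. At an unadjusted p under 0.05, 18 (36%) were lower and 5 (10%) higher, against 14.8% and 16.9% of all genes. By that probe no gene of the 50 changed by 1.5-fold or more with p under 0.05, as 1.92% of all genes did, and the largest difference was 1.30-fold. Among the other probes 1 did, a second probe of DDX10, and 1 was called higher, a second probe of MXI1. The SE of these genes was smaller than that of other genes, with a median of 0.049 against 0.061 on the log2 scale, so small differences passed the test more easily here. At this size (3 and 3 arrays), the smallest p that an exact permutation test of 1 gene could reach is 0.1.

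The counts are given apart for the MYC network and for the genes of ribosome and polyamine synthesis. In the MYC network 6 of 8 genes were above 0 and none was called, with a median of 0.03. Among the 42 genes of ribosome and polyamine synthesis, 33 were below 0 and 7 (16.7%) were called lower, with a median of -0.11. The 3 values of the IL-17A arrays lay below all 3 control values in 20 of these 42 genes (47.6%) and above them in 3, whereas over all genes the groups did not overlap in 19.3% (lower) and 21.3% (higher). In the MYC network they did not overlap in 4 genes (higher) and 1 gene (lower). The difference between these 2 sets of genes was not tested.

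**Figure D1:**
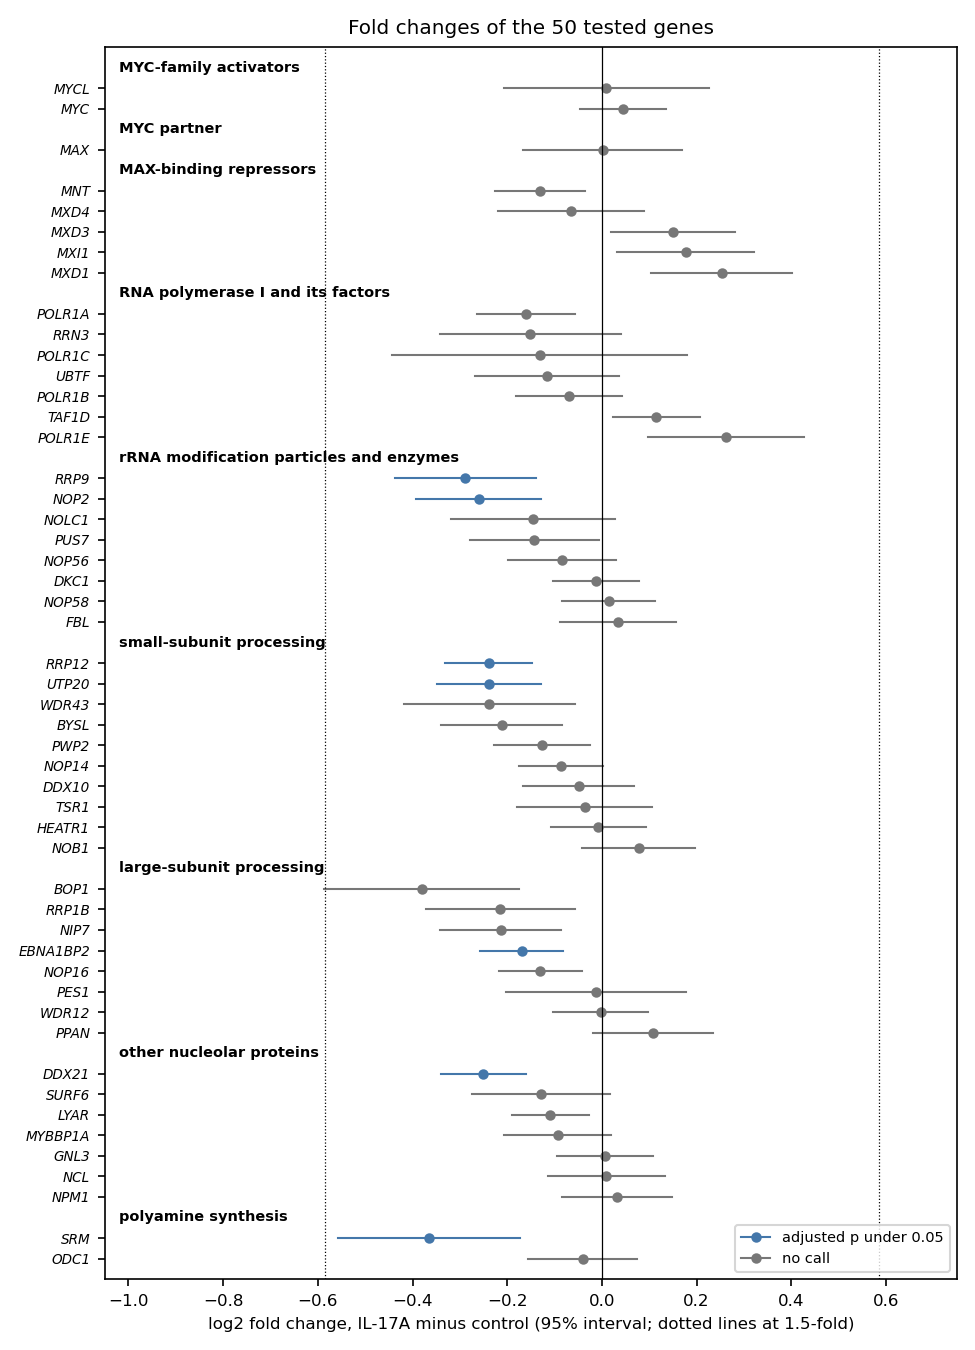
Log2 fold change (x axis, IL-17A minus control, points) of the 50 tested genes (y axis) with its 95% interval (lines), grouped by role; blue marks the 7 genes with adjusted p under 0.05 and dotted lines mark 1.5-fold. Most genes of ribosome synthesis lie left of 0, between -0.38 and 0.26, and all points stay inside the dotted lines.

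MYC, the activator that gives the network its name, was detected on all 6 arrays and was not called. It read 14.24, 14.17 and 14.18 (log2 signal) with IL-17A and 14.15 on each of the 3 control arrays. The IL-17A values lay above the controls without overlap, but the difference was 0.04 (SE 0.037, adjusted p = 0.449 by limma), with a 95% interval of -0.05 to 0.14, and it turned to -0.02 when the arrays were scaled to their 75th percentile. MYCL, a relative of MYC, read 6.25, 6.44 and 6.30 with IL-17A and 6.20, 6.29 and 6.47 in controls, with full overlap and a difference of 0.01.

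MAX, the obligate partner of MYC and of its antagonists, read 10.75, 10.54 and 10.59 on its brightest probe with IL-17A and 10.64, 10.67 and 10.56 in controls, a difference of 0.00 (SE 0.068). Its 2 dimmer probes, which match other RefSeq transcripts, gave 0.19 (adjusted p = 0.136) and 0.24 (adjusted p = 0.0526), both without overlap between the groups. The probes of MAX thus disagreed in size, and none was called.

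Of the repressors that compete with MYC for MAX, 3 of 5 were above 0. MXD1, which accompanies differentiation in many cell types, read 9.63, 9.76 and 9.67 with IL-17A and 9.38, 9.39 and 9.53 in controls, a difference of 0.25 (SE 0.060, adjusted p = 0.0604 by limma). MXD3, a repressor of the same family, read 10.49, 10.39 and 10.41 with IL-17A and 10.36, 10.26 and 10.22 in controls, a difference of 0.15 (adjusted p = 0.123). MXI1 read 10.83, 10.72 and 10.79 with IL-17A and 10.68, 10.60 and 10.52 in controls, a difference of 0.18 (adjusted p = 0.109). In all 3 genes each IL-17A array lay above each control array, and none passed the adjusted threshold on this probe. Over all genes 21.3% were higher without overlap and 19.3% lower without overlap.

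The other tested probes of these 3 genes also lay above 0. A second MXI1 probe, with the same RefSeq accession, read 8.73, 8.51 and 8.60 with IL-17A and 8.29, 8.22 and 8.26 in controls, and rose by 0.36 (SE 0.063, adjusted p = 0.0392 by limma). The second probe of MXD3 gave 0.31 (adjusted p = 0.0553) and that of MXD1 0.25 (adjusted p = 0.142).

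The other repressors were below 0. MNT, the broadly expressed antagonist, read 11.30, 11.26 and 11.23 with IL-17A and 11.43, 11.39 and 11.37 in controls, a difference of -0.13 (adjusted p = 0.0874) without overlap, and its second probe gave -0.14 (adjusted p = 0.117). MXD4 read 7.76, 7.91 and 7.88 with IL-17A and 8.01, 7.86 and 7.88 in controls, with overlap, and its probes differed in sign (-0.07 and 0.09).

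**Figure D2:**
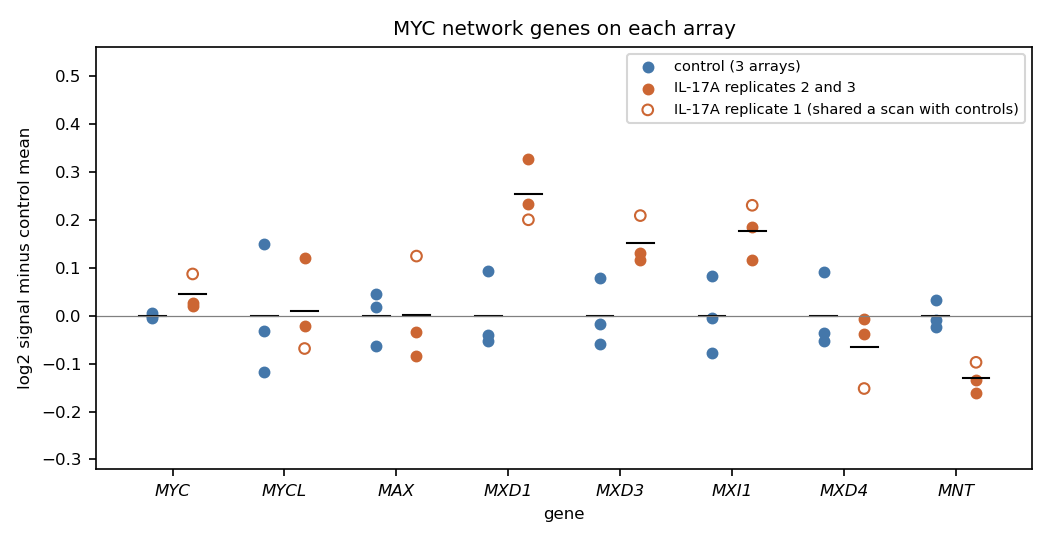
Log2 signal of each array minus the control mean of the gene (y axis) for the 8 tested MYC network genes (x axis); blue points are controls, orange points IL-17A arrays, the open point is the IL-17A array scanned with the controls, and black lines are group means. MXD1, MXD3 and MXI1 lie above their controls and MNT below, while MYC differs by 0.04 and MAX by 0.00.

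RNA polymerase I makes the rRNA precursor, and none of the 7 genes listed here for its subunits and factors was called. Over all genes 3.49% were called lower and 4.38% higher, so 7 genes would hold few or 0 calls. POLR1G, which is outside the 51 genes, was called lower (-0.40, adjusted p = 0.0327 by limma). Of the 7, 5 were below 0 (median -0.12). POLR1A, the catalytic subunit, differed by -0.16 (adjusted p = 0.0691) without overlap, while POLR1B, the second largest subunit, differed by -0.07 and RRN3, which recruits the enzyme to the promoter, by -0.15, both with overlap. The other 2 RRN3 probes gave 0.05, with IL-17A higher without overlap, and 0.00, so the probes of RRN3 disagreed. UBTF, which holds the rRNA genes open, differed by -0.12 without overlap (adjusted p = 0.248).

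POLR1C, a subunit shared with RNA polymerase III, read 9.58 in IL-17A replicate 1 and 9.96 to 10.03 on the other 5 arrays, so its difference of -0.13 (SE 0.126) came from 1 array, and without that array it was 0.01. Its second probe gave -0.04, with 7.88 on IL-17A replicate 1.

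The other genes of this group were above 0. POLR1E, a subunit of the RNA polymerase I lobe, read 7.85, 7.64 and 7.69 with IL-17A and 7.50, 7.49 and 7.41 in controls, a difference of 0.26 (adjusted p = 0.0671) and the highest of the 50 genes. TAF1D, a part of the promoter selectivity factor, read 11.45, 11.49 and 11.52 with IL-17A and 11.39, 11.37 and 11.36 in controls, a difference of 0.11 (adjusted p = 0.106).

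Among 8 genes of rRNA modification 6 (75%) were below 0 and 2 (25%) were called lower, against 49.1% and 3.49% of all genes. RRP9, a protein of the U3 particle that guides the first cuts of the precursor, read 8.19, 8.01 and 8.16 with IL-17A and 8.46, 8.40 and 8.37 in controls, and fell by 0.29 on the log2 scale (SE 0.060, adjusted p = 0.0488 by limma). NOP2, a methyltransferase of the large rRNA, read 8.24, 8.13 and 8.25 with IL-17A and 8.51, 8.48 and 8.40 in controls, and fell by 0.26 (SE 0.053, adjusted p = 0.0475). In both, the highest IL-17A array lay below the lowest control array.

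The core proteins of the modification particles were not called, and the groups overlapped on their brightest probes. FBL (fibrillarin), the methyltransferase of the box C/D particles, read 14.59, 14.57 and 14.53 with IL-17A and 14.47, 14.50 and 14.61 in controls, a difference of 0.03 (SE 0.049). Its partners NOP56 and NOP58 differed by -0.08 and 0.01, and DKC1 (dyskerin), the pseudouridine synthase of the box H/ACA particles, by -0.01, all with overlap. A second NOP56 probe gave -0.13 (adjusted p = 0.0833) without overlap. PUS7, a stand-alone pseudouridine synthase, differed by -0.14 (adjusted p = 0.147) without overlap, and NOLC1, a chaperone of the particles, by -0.15 with overlap. The spread of FBL was narrow enough to bound its difference between -0.09 and 0.16 (95% interval), although the sign turned with the scaling (-0.07 at the 75th percentile).

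In small-subunit processing 9 of 10 genes (90%) were below 0 and 2 (20%) were called lower, against 49.1% and 3.49% of all genes. RRP12, which takes part in late maturation and export of the small subunit, read 6.99, 6.97 and 7.01 with IL-17A and 7.19, 7.24 and 7.25 in controls, and fell by 0.24 (SE 0.037, adjusted p = 0.0330 by limma). UTP20, a very large scaffold protein of the small-subunit processome, read 9.15, 9.21 and 9.21 with IL-17A and 9.40, 9.40 and 9.49 in controls, and fell by 0.24 (SE 0.044, adjusted p = 0.0417). The spread inside each group was under 0.1 for both genes.

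Others of this group had differences of like size without overlap. WDR43, a processome protein, differed by -0.24 (SE 0.073, adjusted p = 0.0944), BYSL (bystin) by -0.21 (SE 0.051, adjusted p = 0.0622) and PWP2 by -0.13 (adjusted p = 0.104). NOP14 also did not overlap, at -0.09 (adjusted p = 0.167), although its second, dimmer probe gave 0.10. HEATR1, TSR1 and DDX10 differed by -0.01, -0.04 and -0.05 with overlap, and a second, dimmer probe of DDX10 gave -0.64 (SE 0.212, adjusted p = 0.110 by limma). That probe was 1.56-fold lower without overlap and passed the threshold of 1.5-fold with an unadjusted p under 0.05, but not the adjusted one. NOB1, the enzyme of the last cut of the small rRNA, was the only one above 0, with 10.54, 10.43 and 10.50 with IL-17A and 10.46, 10.41 and 10.37 in controls.

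In large-subunit processing 7 of 8 genes (87.5%) were below 0 and 1 (12.5%) was called lower, against 49.1% and 3.49% of all genes. EBNA1BP2, an assembly factor of early large-subunit particles, read 12.59, 12.59 and 12.57 with IL-17A and 12.73, 12.75 and 12.78 in controls, and fell by 0.17 (SE 0.035, adjusted p = 0.0475 by limma), the smallest change among the called genes.

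BOP1 lay just outside the threshold and SRM just inside it. BOP1 read 9.85, 9.66 and 9.78 with IL-17A and 10.26, 10.16 and 10.01 in controls, a difference of -0.38 (SE 0.083, adjusted p = 0.0525), the lowest of the 50 genes. BOP1, PES1 and WDR12 are the 3 proteins of the PeBoW complex, which matures the large-subunit rRNA. PES1 differed by -0.01 (95% interval -0.20 to 0.18) and WDR12 by -0.00 (95% interval -0.10 to 0.10), and the IL-17A and control values of both overlapped. The difference between the 3 genes was not tested.

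Of the remaining large-subunit genes, NIP7 (-0.21, adjusted p = 0.0617), RRP1B (-0.21, adjusted p = 0.0882) and NOP16 (-0.13, adjusted p = 0.0762) did not overlap between the groups. PPAN, above 0, read 6.16, 6.00 and 6.05 with IL-17A and 5.99, 5.96 and 5.94 in controls, a difference of 0.11 (adjusted p = 0.214).

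Among 7 other nucleolar proteins 4 (57.1%) were below 0 and 1 (14.3%), DDX21, was called lower, against 49.1% and 3.49% of all genes. DDX21, an RNA helicase of the nucleolus that takes part in rRNA transcription and processing, read 9.63, 9.64 and 9.60 with IL-17A and 9.91, 9.85 and 9.86 in controls, and fell by 0.25 on the log2 scale (SE 0.036, adjusted p = 0.0327 by limma), the lowest adjusted p of the 50 genes. LYAR differed by -0.11 (adjusted p = 0.0926) and MYBBP1A by -0.09 (adjusted p = 0.222), both without overlap, and SURF6 by -0.13 with overlap.

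NCL, NPM1 and GNL3 were not called. NCL (nucleolin), a binding protein of the rRNA precursor, read 14.78, 14.67 and 14.63 with IL-17A and 14.67, 14.67 and 14.71 in controls, a difference of 0.01 (95% interval -0.11 to 0.13). NPM1 (nucleophosmin), a nucleolar chaperone, read 15.60, 15.71 and 15.71 with IL-17A and 15.62, 15.64 and 15.67 in controls, a difference of 0.03, and its other probes gave 0.10 (without overlap, adjusted p = 0.110) and -0.03. GNL3 (nucleostemin) differed by 0.01. The sign of all 3 turned with 75th percentile scaling, to -0.08 for NCL, -0.13 for NPM1 and -0.03 for GNL3.

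**Figure D3:**
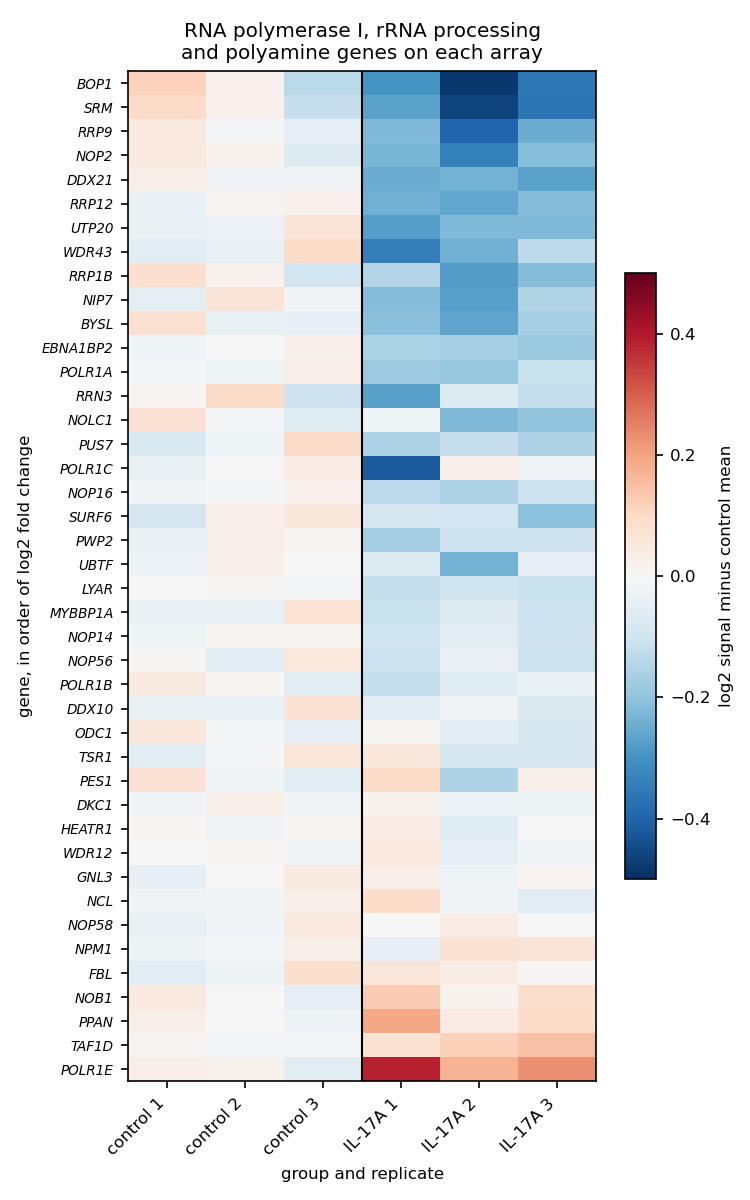
Log2 signal of each array minus the control mean of the gene (colour scale) for the 42 genes of ribosome and polyamine synthesis (y axis, in order of log2 fold change) on the 3 control and 3 IL-17A arrays (x axis). The upper rows, from BOP1 to POLR1A, are blue on all 3 IL-17A arrays, and POLR1C is dark on IL-17A replicate 1 alone.

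Polyamines are small cations that cells need for growth, and both genes of their synthesis are MYC targets. SRM (spermidine synthase) read 10.15, 9.96 and 10.06 with IL-17A and 10.52, 10.44 and 10.30 in controls, and fell by 0.36 (SE 0.077, adjusted p = 0.04998 by limma, just under the threshold), or 1.29-fold. ODC1 (ornithine decarboxylase), the enzyme of the first step, read 13.11, 13.06 and 13.03 with IL-17A and 13.16, 13.10 and 13.06 in controls, with overlap and a difference of -0.04 (SE 0.046). Of 11 further polyamine genes, 6 were below 0. At an unadjusted p under 0.05, 3 (27.3%) were lower and 2 (18.2%) higher, against 14.8% and 16.9% of all genes. SAT1, which acetylates spermidine and spermine for breakdown or export, rose by 0.22 (adjusted p = 0.0373 by limma), and none was called lower. SMOX (-0.32, adjusted p = 0.104), dim at 2.36 to 2.96, and OAZ2 (0.13, adjusted p = 0.119) were not called.

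The fold changes of the E-box genes are given as a description. The 20 genes with CACGTG had a median log2 fold change of -0.13, with 18 of 20 below 0, and the 23 without it had a median of -0.01, with 13 of 23 below 0. These groups differ in make-up. Those without the motif include MYCL, MAX, MXD1, MXD3 and MXI1 of the MYC network, all above 0. Those with it include MXD4 and MNT of that network, both below 0. The share of the MYC network in this contrast was not tested. Over all tested genes with a promoter entry the medians were 0.00 and 0.01, and 4.43% of those with the motif and 3.17% of those without it were called lower. The windows of FBL, PES1 and GNL3 printed above hold the same 6 letters as those of RRP9 and UTP20, while their differences were 0.03, -0.01 and 0.01.

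Other genes of the same pathways, not among the 51, were counted in the same way. Of 92 further genes of RNA polymerase I, rRNA processing and rRNA modification, 69 (75%) were below 0 (median -0.05), against 49.1% of all genes. Of the 92, 9 (9.78%) were called lower and 0 higher, against 3.49% and 4.38% of all genes. At an unadjusted p under 0.05, 30 (32.6%) were lower and 3 (3.26%) higher, against 14.8% and 16.9%. POLR1G, which pairs with POLR1E in the polymerase, read 8.84, 8.75 and 8.80 with IL-17A and 9.28, 9.20 and 9.12 in controls and fell by 0.40 (adjusted p = 0.0327), whereas POLR1E itself differed by 0.26. DHX37, a helicase that acts on the U3 particle, fell by 0.33 (adjusted p = 0.0324), TBL3 by 0.29 (adjusted p = 0.0327) and GRWD1 by 0.28 (adjusted p = 0.0370). The other called genes, all lower, were LTV1, WDR46, NOC4L, URB2 and NOC2L. NOL6, a processome protein, was the only one of the 92 past 1.5-fold with p under 0.05, at -0.67 (SE 0.159, adjusted p = 0.0601), and its control arrays spread from 7.67 to 8.24. Of 14 genes of the nuclear exosome, which trims rRNA, 0 were called, and at the shares of all genes 14 genes would hold few or 0 calls. At an unadjusted p under 0.05, 3 (21.4%) were higher and 1 (7.14%) lower, against 16.9% and 14.8% of all genes.

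Further genes around MYC were mixed. Over all tested genes 4.38% were called higher and 3.49% lower, so lists this short would hold few or 0 calls. At an unadjusted p under 0.05 the shares of all genes were 16.9% higher and 14.8% lower. Of 14 regulators of MYC 0 were called by limma, with PIM2, a kinase that stabilises MYC, at 0.24 (adjusted p = 0.0835) and 1 gene higher and 0 lower at an unadjusted p under 0.05. Of 9 genes listed here as repressed by MYC, 0 were called by limma. CDKN1B (p27) differed by 0.26 (adjusted p = 0.0595), ID2 by -0.10 (adjusted p = 0.130) and CDKN1A (p21) by 0.24 (adjusted p = 0.156). Of these 9, 2 were higher and 1 lower at an unadjusted p under 0.05. Of 16 nucleotide synthesis genes that MYC regulates, 10 were below 0, with 1 higher and 4 lower at an unadjusted p under 0.05. PRPS2, which makes the ribose phosphate precursor, rose by 0.30 (adjusted p = 0.0345 by limma). NME1, a nucleoside diphosphate kinase, fell by 0.18 (adjusted p = 0.0470). With 1 call each way (6.25%), this list was near the shares of all genes. The 12 housekeeping genes had a median of 0.00 and 0 calls, with 2 higher and 0 lower at an unadjusted p under 0.05.

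The 7 called genes stayed below 0 under each of the 18 other ways of processing, but most of these could not turn the sign. Their groups did not overlap, so leaving out 1 array or using the scan as a block could not do so. Changes of the filter, floor, test, variance trend, replicate block or probe averaging left these fold changes as they were. Only the scaling, background correction and deposited values bear on the sign. Leaving out 1 array left 0 of the 50 called lower, or 1 without control replicate 3. With the scan as a block, which in this layout compares IL-17A replicate 1 with the 3 controls scanned beside it, 0 were called lower, 28 of the 42 genes of ribosome and polyamine synthesis were below 0 and their median was -0.11; all genes together then gave 8 calls higher and 23 lower. In that comparison DDX21 differed by -0.25, RRP12 by -0.24, UTP20 by -0.27, NOP2 by -0.23, EBNA1BP2 by -0.16, RRP9 by -0.22 and SRM by -0.27. In these bulk samples, fewer cells of a type and less RNA per cell cannot be told apart.

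**Figure D4:**
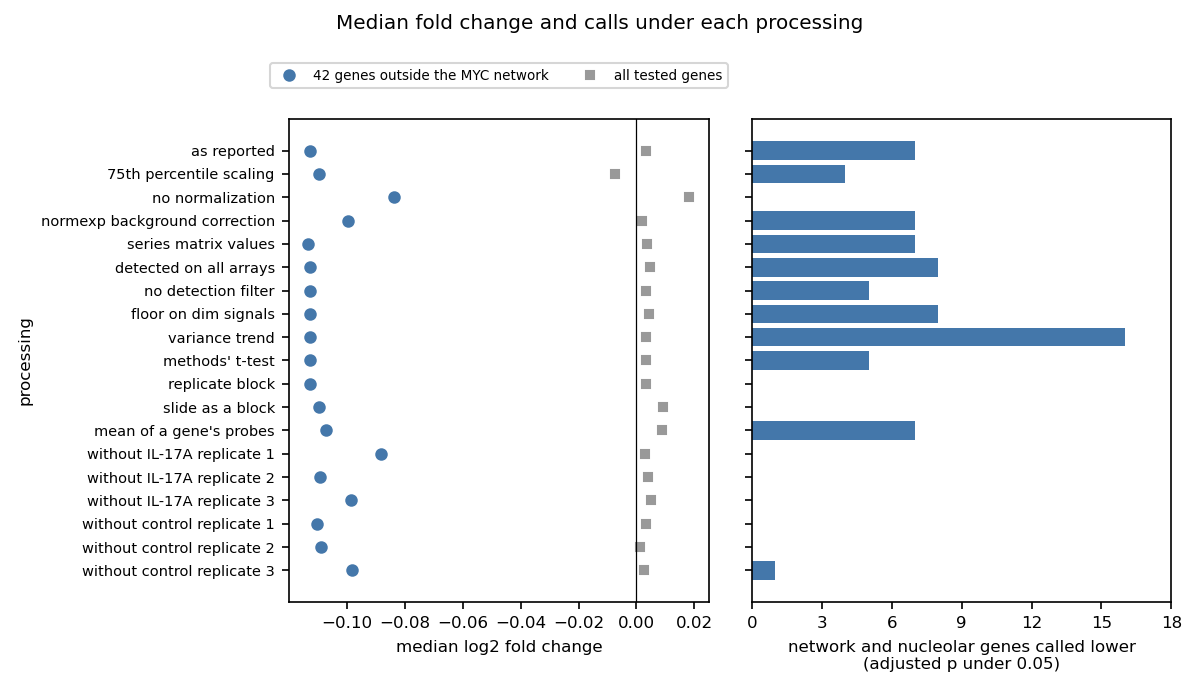
Left, median log2 fold change (x axis) of the 42 genes of ribosome and polyamine synthesis (circles) and of all tested genes (squares) under each way of processing (y axis, with the scan named slide); right, the number of the genes described here called lower at adjusted p under 0.05 (bars). The circles stay between -0.08 and -0.11 and the squares near 0, while the number called ranges from 0 to 16.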

How the data were processed

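Samples were grouped by their titles (3 IL-17A, 3 control). Per the file headers, the deposited array files hold the spot intensity that Agilent Feature Extraction 11.0.1.1 gives after background subtraction, not normalized between arrays, with flags of 0 or 1 that mark spots as positive, significant, well above background, saturated or non-uniform (other units). The authors also deposited a table of log2 values after quantile normalization, used as an alternative.

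Control and non-uniform spots were left out, intensities below 1 were set to 1, the 43118 spots were averaged by probe on the log2 scale, and the arrays were quantile normalized. Probes detected (positive, significant and well above background) on at least 3 of 6 arrays, 23936 (70.1%), entered a two-sided limma fit (limma 3.58.1 under R 4.3.3) of group alone, and p-values were adjusted by Benjamini-Hochberg across those probes. Probes were named through RefSeq accessions (GRCh38.p14 names), and the brightest tested probe (by mean signal) stood for a gene. The number of arrays limits the precision. The procedure was tested on simulated data.

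The genes and lists were chosen with earlier results of these data known, so lists are given as counts and medians. Values on each array are given for the MYC network, up to 8 genes per direction with the lowest adjusted p, and ODC1, SRM, NCL, NPM1 and FBL; of further lists, up to 3 genes with the lowest adjusted p are named. NOC4L and NOL6 were named after their values were seen. Alternatives were the scaling, background correction, deposited log2 values, detection filter, floor, variance trend, the methods' t-test, blocks, probe averaging and leaving out each array.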

Additional observations from a re-analysis of the deposited data

How the results depend on the processing

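The median log2 fold change of the 50 genes was -0.07 to -0.10 under all alternatives, by 1 value per gene none passed 1.5-fold with p under 0.05 in any, and over single genes 747 alternative values kept direction and side of the threshold, 77 lost and 28 gained the call, and 48 changed sign. Genes called lower numbered 7, but 4 with 75th percentile scaling, 0 without normalization, 0 with the scan as a block, 16 with a variance trend, 5 with the methods' t-test, 5 without a detection filter, 8 with the floor, 8 with probes detected on all arrays, and 0 to 1 when 1 array was left out, which also leaves fewer samples. Of the 7, 3 were still called with 75th percentile scaling, 3 with the t-test, 4 without a detection filter, 4 with normexp (of its 7) and 6 with the deposited log2 values (of their 7). Genes called higher numbered 0, but 2 with normexp, 1 with probes detected on all arrays, 4 with a variance trend and 2 with the mean of a gene's probes. All genes called lower numbered 515, and 0 to 245 with 1 array left out. The causes of the other differences were not tested.

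Replicate numbers did not pair the samples, since the deviations of same-numbered samples correlated at -0.087, -0.0024 and -0.047. With a replicate block 0 of the 50 genes were called lower, and over all genes 2 were called higher and 1 lower.

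Single genes changed sign as follows. With 75th percentile scaling the log2 fold change was -0.074 for FBL, -0.033 for GNL3, 0.00080 for HEATR1, -0.018 for MYC, -0.084 for NCL, -0.033 for NOP58, -0.13 for NPM1 and 0.010 for WDR12. Without normalization it was 0.022 for DKC1, -0.048 for FBL, -0.0075 for GNL3, 0.027 for HEATR1, -0.059 for NCL, -0.0076 for NOP58, -0.10 for NPM1, 0.0082 for PES1, 0.0064 for TSR1 and 0.036 for WDR12. With normexp it was 0.016 for DDX10, 0.029 for ODC1 and 0.012 for WDR12. With the mean of probes it was 0.014 for MXD4 and 0.0049 for NOP14. With the scan as a block it was 0.017 for DKC1, 0.037 for HEATR1, -0.069 for MYCL, -0.042 for NPM1, 0.0073 for ODC1, 0.090 for PES1, 0.055 for TSR1 and 0.051 for WDR12.

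With 1 array left out the ranges were -0.027 to 0.0018 for DKC1, -0.014 to 0.030 for GNL3, -0.031 to 0.018 for HEATR1, -0.059 to 0.044 for MAX, -0.049 to 0.084 for MYCL, -0.032 to 0.039 for NCL, -0.0028 to 0.039 for NOP58, -0.065 to 0.058 for PES1, -0.21 to 0.011 for POLR1C and -0.029 to 0.019 for WDR12.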
